A study of Mus musculus with 51 samples.

Results

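The respiratory chain of mitochondria is built from subunits encoded in 2 genomes, and the nuclear genes among them were followed here across 14 groups of sorted mouse epithelial cells. They were taken by name from the deposited count table: complex I genes (Ndufa, Ndufb, Ndufc, Ndufs and Ndufv series), the Sdh genes of complex II, the Uqcr genes of complex III, the Cox4 to Cox8 genes of complex IV and the Atp5 genes of complex V, without pseudogenes and without the Ndufaf assembly factors. The rule gave 84 of 52636 genes, of which 35 belong to complex I, 4 to complex II, 8 to complex III, 20 to complex IV (Ndufa4 and Ndufa4l2 counted there) and 17 to complex V. Atp5s and Atp5sl match the rule by name and are counted with complex V on that ground alone. GENCODE M21 lists Atp5sl under the symbol Dmac2, and a place in the ATP synthase is not implied for either gene. All 84 are annotated as protein coding in GENCODE M21 (GRCm38), and all 84 had a count in at least 1 library.

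As background, complexes I and II pass electrons from NADH and succinate to ubiquinone, complex III passes them on to cytochrome c, and complex IV reduces oxygen. Complexes I, III and IV pump protons across the inner membrane, and complex V, the ATP synthase, uses the gradient to make ATP. A core of complexes I, III, IV and V is encoded in mitochondrial DNA, complex II is wholly nuclear, and acid-secreting parietal cells of the stomach are among the most mitochondria-rich cells of the body.

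Total RNA from cells sorted by EpCAM, an epithelial surface protein, or by a YFP reporter was sequenced in 51 libraries. Wild-type CD1 oesophagus sorted for low EpCAM (WT, 6 libraries) and YFP-negative, EpCAM-high cells from the squamous side of the oesophagus-stomach junction of Krt8YFP mice (junction squamous, 3) are the normal squamous groups. EpCAM-high, YFP-positive cells from the columnar side of the junction (4), and YFP-positive cells of the stomach (2) and gut (2), all from Krt8YFP mice of mixed background, are the normal columnar groups, and EpCAM- and YFP-sorted E13.5 oesophagus of the same genotype and background is the embryonic one (2). The other groups carry Krt5-SmoM2, an active Smoothened expressed under control of the basal keratin Krt5: EpCAM-high cells on CD1 (SmoM2, 6), EpCAM-high cells of Krt5-SmoM2-Krt8YFP mice of mixed background with YFP (K8YFP+, 3) or without it (K8YFP-, 3), EpCAM-high and EpCAM-low cells at 3 and at 7 weeks (4 libraries in each of these 4 groups), and EpCAM-high cells of Krt5-SmoM2-Sox9fl/fl mice (Sox9cKO, 4). The labels give no strain for the junction squamous, 3-week, 7-week and Sox9cKO groups, do not say from when the weeks are counted, and do not tie libraries to animals, so that p-values measure the spread between these libraries, which may in part be technical.

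Library totals ran from 1.61 to 12.26 M (mega) counts, the shallowest being a K8YFP+ library. Squamous, gastric and intestinal marker genes matched the labelled tissues. The 9 squamous markers summed to 12401 to 28895 CPM (counts per M counts of library total) in the normal squamous groups. In the normal columnar groups they summed to 33.6 to 199 CPM. There, gastric chief and pit cell markers (junction columnar and stomach, 21210 CPM or more) or intestinal markers (gut, 10522 CPM or more) were high. In the embryo the squamous markers summed to 1381 and 2319 CPM. The 11 columnar markers summed to 3300 to 10445 CPM in the normal columnar groups. They also reached 213 to 232 CPM in junction squamous cells, against 5.87 to 10.1 CPM in WT, and 1582 and 791 CPM in the embryo. In the check of the deleted gene, Sox9 had 51.7, 45.7, 127 and 45.8 CPM in the 4 libraries labelled Sox9cKO against 72.7 to 194 CPM in SmoM2, so the library labelled Sox9cKO 3 lay within the SmoM2 range; counts over the whole gene can include parts outside a deletion. WT libraries 3 and 5, and 4 and 6, stood closer to each other (chi-square per degree of freedom 1.83 and 2.31) than the other 13 WT pairs did (9.94 to 31.5). Within each of these pairs the raw names differ in their leading number alone, as the name of WT 2 does from WT 3 and 5, and the labels do not say whether the pairs are repeat libraries, so the 6 WT libraries may stand for fewer samples. Counts with the pairs summed are given where they differ by over 1.5 times. Bulk sums cannot tell apart fewer cells of a type from less RNA per cell.

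RefSeq promoter windows (GRCm38.p6, 250 bases before to 50 after the start) were matched by symbol for 66 of the 84 genes. They were searched on both strands for 3 letter strings of factors known as background to regulate respiratory genes: the palindrome of GCGCA and its reverse complement for NRF1, CCGGAAG for GABPA and AAGATGGC for YY1. A gene was counted if any of its windows held the string. The NRF1 string was found for 5 of the 66 genes (7.58%, against 1.07% of all 27025 genes with a window) and the GABPA string for 16 (24.2% against 9.93%). The YY1 string was found for 9 (13.6% against 3.19%), 7 of those 9 in complex I. The 27025 genes were not matched to the 66 in expression, gene type or number of windows. In all, 27 of the 66 genes had at least 1 of the strings and 39 had none. A match describes letters and is not a binding site. The 3 stretches shown are from genes named below that hold a string, and do not stand for the 39 without one. They are cut to upstream bases outside every annotated exon. They are given 5′ to 3′ on the minus strand with the string, or its reverse complement, in capitals. Cox6a1 also had the GABPA string, outside the stretch shown. Cox6a1 (subunit of complex IV) is shown from chr5:115348982-115349129, Sdhd (membrane anchor of complex II) from chr9:50603850-50603909, and Uqcrh (hinge protein of complex III) from chr4:116075072-116075268.
Cox6a1: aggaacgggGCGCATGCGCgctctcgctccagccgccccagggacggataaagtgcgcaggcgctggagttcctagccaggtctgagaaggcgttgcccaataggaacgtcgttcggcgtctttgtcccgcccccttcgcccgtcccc
Sdhd: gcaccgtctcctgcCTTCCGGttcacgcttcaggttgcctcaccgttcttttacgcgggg
Uqcrh: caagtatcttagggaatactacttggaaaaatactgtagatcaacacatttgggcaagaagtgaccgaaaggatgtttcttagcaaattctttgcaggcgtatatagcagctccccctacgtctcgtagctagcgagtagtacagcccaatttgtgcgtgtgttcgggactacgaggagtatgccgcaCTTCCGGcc

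The 84 genes took a larger share of all counts in normal columnar cells than in any other group. Their summed level was 5305 ± 269 CPM in WT (SD, n = 6), 5716 ± 149 in junction squamous cells (n = 3), 7578 ± 580 in junction columnar cells (n = 4), 9891 ± 1169 in stomach (n = 2) and 7737 ± 175 in gut (n = 2). The libraries did not overlap: the 9 squamous libraries ranged from 4966 to 5866 CPM and the 8 columnar ones from 7045 to 10718 CPM. These levels are by plain library total. The log2 ratio of sums was 0.41 at the junction and -0.35 in gut against stomach. Both were nearer 0 with TMM scaling, which the tests below use, as given in the section on processing. The lowest sums of the series were those of the embryo, 3650 and 4548 CPM, and of EpCAM-high SmoM2 cells at 3 weeks, 4316 to 4448 CPM. Stomach had the highest group mean for 62 of the 84 genes, and the embryo had the lowest for 33 and the 3-week EpCAM-high group for 26.

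**Figure D1:**
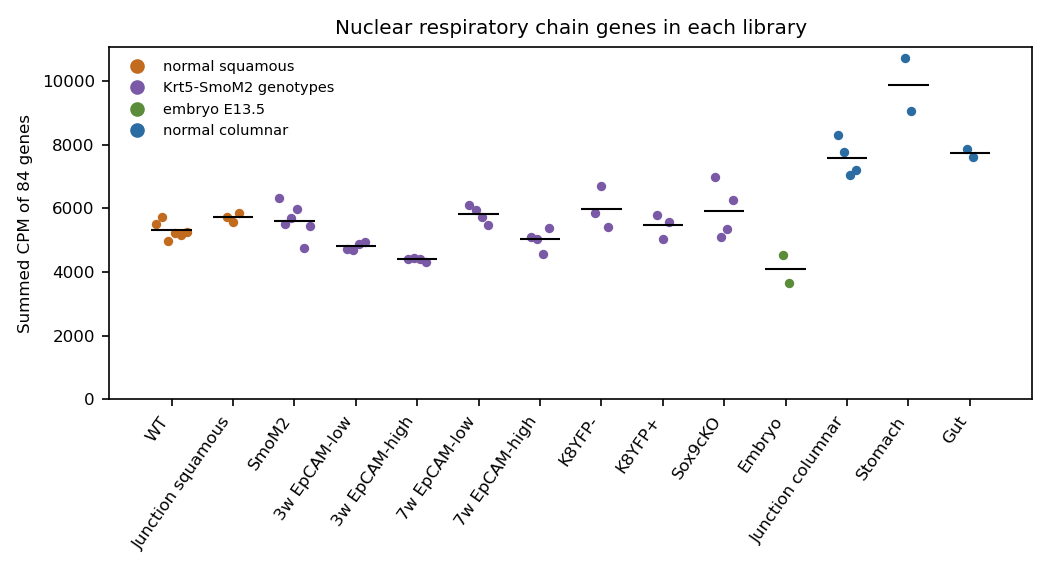
Summed level of the 84 nuclear respiratory chain genes (CPM of library total, linear axis from 0) in each of the 51 libraries; points are libraries and bars are group means. All 8 normal columnar libraries lie at 7045 CPM or above, and all others at 6979 CPM or below.

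By the number of reads, complex V led in each of the 14 groups, with 34.9% to 41.7% of the summed CPM on average, and complex II held the least, 3.22% to 6.12%. These shares do not depend on how libraries are scaled against each other. Complex V took 34.3% to 38.1% of the sum in junction columnar and stomach libraries against 39.8% to 42.1% in the normal squamous ones. Gut libraries were at 38.0% and 39.7%. A low share was not particular to columnar tissues, since K8YFP+ libraries were at 35.7% to 37.8%, against 40.7% to 41.5% in K8YFP- ones. Complex II took 5.62% to 6.14% in junction columnar libraries against 3.74% to 4.14% in junction squamous ones. Complex I took 25.7% to 26.5% in junction columnar cells and 25.2% and 26.4% in the embryo, against at most 23.8% in the normal squamous groups. Stomach lay between, at 24.2% and 24.9%, and gut, at 22.2% and 23.3%, lay within the squamous range. Complex IV took 22.1% to 24.7% in K8YFP+ libraries and 18.5% to 20.1% in K8YFP- ones.

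**Figure D2:**
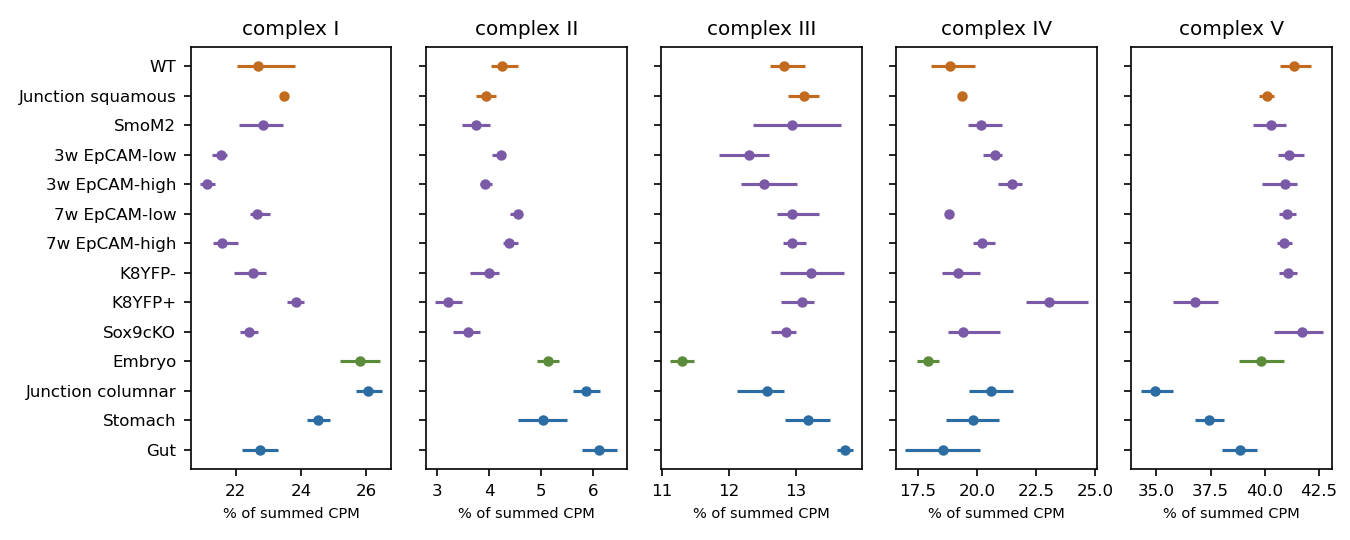
Share of the summed CPM of the 84 genes held by each complex (percent, axes not starting at 0) in the 14 groups; points are group means and lines run from the lowest to the highest library. Complex V is lowest in junction columnar cells (mean 34.9%) and complex IV highest in K8YFP+ cells (mean 23.1%).

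Compared per length of annotated exon, over the mean of the 51 libraries, Atp5a1 and Atp5b, the catalytic-head subunits of the ATP synthase, stood at 169 and 147 CPM per kb, Cox6a1 at 157 and Cox4i1, a regulatory subunit of complex IV, at 117. In complex III Uqcrh reached 99.1 and the core protein Uqcrc1 50.7 CPM per kb, and in complex I Ndufa10 was at 31.2. In complex II the membrane anchor Sdhd was at 39.4 CPM per kb, and the flavoprotein Sdha and the iron-sulphur protein Sdhb at 24.8 and 24.6. Of the genes given here, those of complexes V and IV were the highest per length. That order does not hold for whole complexes, since other members of complexes IV and V stood below Uqcrh. Cox6a1 is given as a member of an isoform family and not for its abundance.

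Normal columnar tissues (junction columnar, stomach and gut) against normal squamous tissues (WT and junction squamous) is the widest comparison. Of 79 genes tested, 67 were called higher and 3 lower at an adjusted p under 0.05, where 32% of all 22370 tested genes were called higher and 34.6% lower. The median log2 fold change was 0.71 for the respiratory genes and -0.02 for all tested genes. Higher were 31 of 35 genes of complex I, 4 of 4 of complex II, 8 of 8 of complex III, 10 of 15 tested of complex IV and 14 of 17 of complex V. The 5 genes that did not pass the filter on low counts are Cox4i2, Cox6a2, Cox7b2, Cox8b and Cox8c.

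The largest rise of a complex I gene was that of Ndufb7, an accessory subunit of the membrane arm (chr8:83566671-83571626, GRCm38, plus strand), at a log2 fold change of 1.68 (SE 0.13, adjusted p = 2.2e-15). The iron-sulphur subunit Ndufs7 rose by 1.33 (SE 0.11, adjusted p = 1.2e-14), and the accessory subunits Ndufa3 and Ndufv3 by 1.29 and 1.27 (SE 0.11 and 0.12). Sdhd, which anchors complex II in the membrane, rose by 1.55 (SE 0.11, adjusted p = 4.9e-17). In complex III the small subunit Uqcr10 rose by 1.23 (SE 0.09) and Uqcrh by 0.55 (SE 0.09), and in complex IV Cox6a1 rose by 1.09 (SE 0.11). Sdhd stood at 184 and 108 CPM in stomach and at 86.3 and 99.1 CPM in gut, above each of the 9 squamous libraries (30.4 to 42.9 CPM).

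The 3 genes lower in columnar tissues were Ndufa4l2, Cox6b2 and Atp5g2, and the ATP synthase c-ring family showed both directions. Its members Atp5g1, Atp5g2 and Atp5g3 encode the same mature c subunit with different import signals. Atp5g1 and Atp5g3 rose by 0.94 (SE 0.10) and 0.73 (SE 0.08) and Atp5g2 fell by 0.27 (SE 0.10, adjusted p = 0.016) on the log2 scale, the last not called when libraries were scaled by totals alone (adjusted p = 0.066). Per length, Atp5g2 held 30.0% to 38.2% of the family's CPM in the squamous libraries, 23.9% to 28.3% in junction columnar, 19.3% and 21.1% in stomach and 14.8% and 16.8% in gut.

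The junction groups give the squamous-columnar comparison at 1 site. Of 78 genes tested, 41 were higher and 12 lower in the columnar cells, where 39.2% of 17185 tested genes were called higher and 35.2% lower, and the medians were 0.28 for the respiratory genes and 0.08 for all genes. With library totals in place of TMM scaling factors, 61 were higher and 2 lower, and the median of all genes moved to 0.39 and that of the respiratory genes to 0.59, so that their distance from all genes was 0.20 with both. Leaving out 1 library at a time gave 30 to 45 genes higher and 11 or 12 lower.

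Ndufb7 stood at 61.3, 55.8, 51.8 and 54.9 CPM in junction columnar cells and at 17.5, 19.2 and 13.3 CPM in junction squamous cells. The lowest columnar library was above the highest squamous one, with a log2 fold change of 1.44 (SE 0.14, adjusted p = 2.5e-06). Sdhd stood at 113, 101, 93.6 and 99.6 CPM against 38.2, 30.4 and 42.9 CPM (log2 fold change 1.14, SE 0.12, adjusted p = 3.9e-06). Its groups did not overlap either. The other genes of complex II rose with it, Sdha by 0.72 (SE 0.11), Sdhc, the second membrane anchor, by 0.52 (SE 0.12) and Sdhb by 0.32 (SE 0.10). Ndufa7, Ndufs7 and Ndufa13, all of complex I, rose by 0.93 (SE 0.11), 0.93 (SE 0.12) and 0.92 (SE 0.17), and Uqcr10 by 0.90 (SE 0.10).

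Subunits of the catalytic cores were among the genes called lower, and apart from Ndufa4l2 and Cox6b2 the 12 genes called lower overlapped between groups in CPM. The complex I core subunit Ndufv1 fell by 0.43 (SE 0.09), Uqcrc1 by 0.32 (SE 0.08), Atp5a1 by 0.40 (SE 0.08) and Atp5b by 0.43 (SE 0.08) on the log2 scale. Atp5b stood at 612, 597, 583 and 580 CPM in columnar cells and at 612, 639 and 683 CPM in squamous ones. The Atp5b groups overlap at their nearest libraries, and with library totals alone the log2 change was -0.12 (adjusted p = 0.22). That scaling left no call for Ndufv1, Uqcrc1 and Atp5a1 either (adjusted p = 0.27, 0.94 and 0.38), nor for Atp5g2 and Ndufa4 (adjusted p = 0.48 and 0.30).

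**Figure D3:**
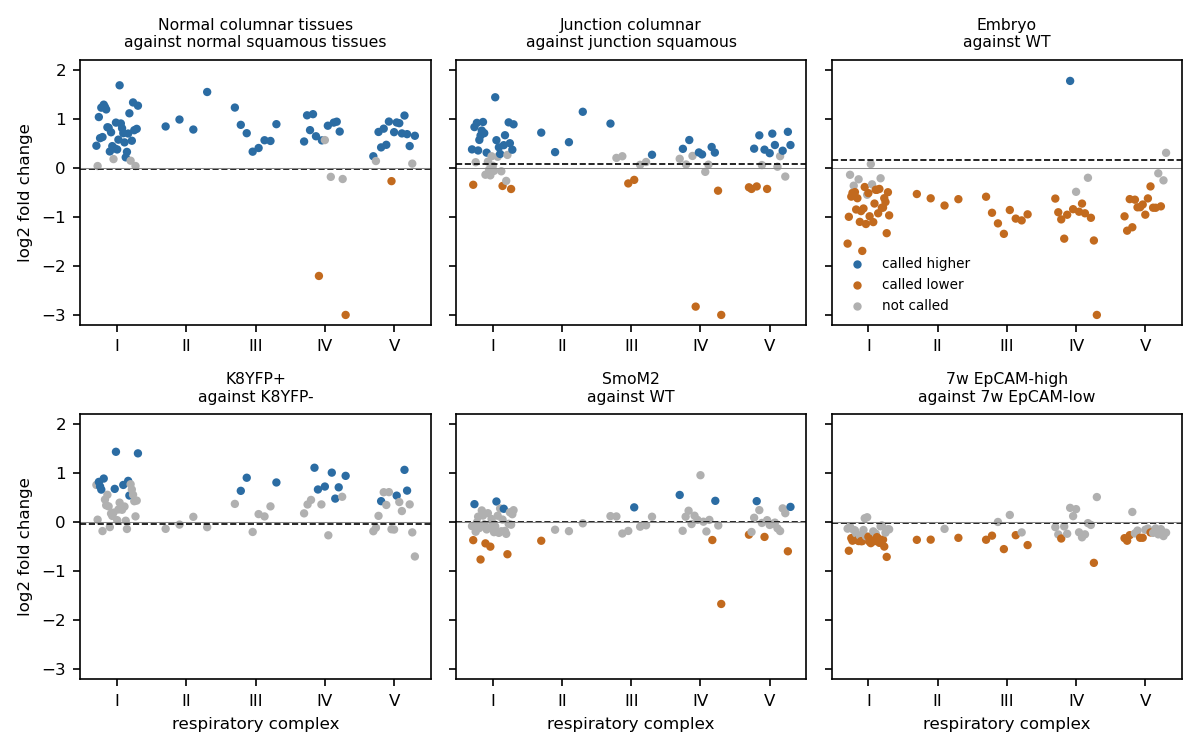
Log2 fold change of each tested gene by respiratory complex in 6 comparisons (TMM-scaled fits); blue points were called higher, orange points lower and grey points neither, and the dashed line is the median of all tested genes. Ndufa4l2, at -6.74, -6.11 and -3.43 in the 3 upper panels, is drawn at the bottom of the panel; complexes I to V lie above the dashed line for most genes in the first panel and below it in the embryo panel.

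Markers of other cell types moved with these comparisons. The 9 parietal cell markers summed to 1335 to 4164 CPM in junction columnar cells and to 925 and 1070 CPM in stomach, and to 22.8 and 52.9 CPM in gut, where Atp4a, the proton pump of that cell, was at 0.45 ± 0.14 CPM (SD, n = 2). The squamous groups held 28.9 to 43.5 CPM of these markers, and the 2 gut libraries summed to 7861 and 7613 CPM of respiratory genes. Immune markers summed to 183 to 416 CPM in junction columnar cells, 544 and 648 CPM in gut and 3.15 and 18.8 CPM in stomach. The part of parietal and immune cells in the result was not tested. Strain, gate and, for the junction, the leading number of the raw library names (9 for columnar and 10 for squamous) differ with the groups and cannot be told apart from them; stomach and gut share their leading number 6 with WT 5 and 6, which summed to 5167 and 5257 CPM.

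Ndufa4 and Ndufa4l2 encode alternative partners of complex IV, Ndufa4l2 being known as a target of the hypoxia response. In WT, Ndufa4l2 (chr10:127514967-127517154, plus strand) stood at 48.4 CPM in the lowest, 69.0 in the median and 104 in the highest of 6 libraries, in junction squamous cells at 10.7, 8.14 and 7.55 CPM, and in junction columnar cells at 0.154, 0, 0 and 0.361 CPM. The columnar groups were near 0, with 3 counts in all 4 junction columnar libraries, 3 in stomach and 2 in gut. From the summed counts, junction squamous cells were 64.7 times as high as junction columnar cells (95% exact interval 21.8 to 317, for counting error only), and WT was 254 times as high as stomach (86.9 to 1232). The 2 normal squamous groups themselves differed, with every WT library above every junction squamous one.

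Per length, Ndufa4l2 held 39.8% to 61.1% of the CPM of the pair in WT, 8.13% to 12.7% in junction squamous cells, 20.9% on average in the embryo and at most 0.965% in any columnar library. Ndufa4 itself ranged less, from a group mean of 45.4 CPM in the embryo to 100 CPM in K8YFP+. The Ndufa4 libraries of WT (mean 88.5 CPM), junction squamous (96.3), junction columnar (86.2) and stomach (97.5) overlap, although the TMM-scaled fit called Ndufa4 lower in junction columnar than in junction squamous cells (log2 fold change -0.47, SE 0.13, adjusted p = 0.0055).

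**Figure D4:**
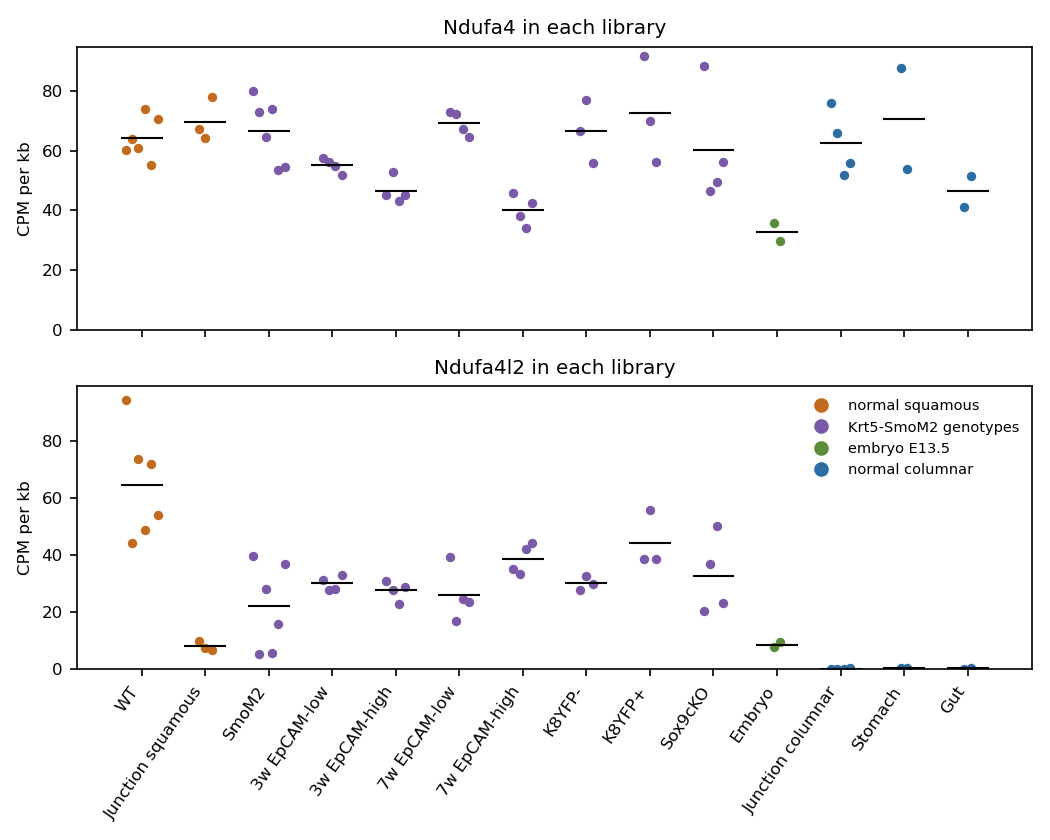
Levels of Ndufa4 and Ndufa4l2 (CPM per kb of annotated exon, linear axes from 0) in each library; points are libraries and bars group means. Ndufa4l2 is highest in WT and near 0 in all 8 normal columnar libraries, while Ndufa4 is present in each of the 51 libraries.

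The isoforms known from heart, muscle, lung or testis were rare. Cox6a2, Cox7b2, Cox8b and Cox8c held at most 1.36% of their families' CPM per length in any library, and Cox4i2 at most 1.99%, the latter in the embryo. Cox7a1, the muscle form, held 6.43% and 8.55% of the Cox7a1 and Cox7a2 sum in gut and was higher there than in stomach (log2 fold change 1.92, SE 0.76, adjusted p = 0.048), a call lost in 7 and kept in 5 alternative settings (adjusted p = 0.48 without stomach 1 and 0.30 without gut 1). Cox6b2, the testis form of a subunit on the cytochrome c side, held 9.12% and 16.2% of its pair in the embryo and 1.14% to 3.54% in WT.

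Gut and stomach, both normal columnar groups, showed calls in both directions. Of 79 tested, 4 were higher in gut and 10 lower, where 15.6% of 22370 genes were called higher and 15.4% lower, and the medians were -0.15 and -0.03. The complex II flavoprotein Sdha stood at 204 and 213 CPM in gut and at 157 and 105 CPM in stomach, with both gut libraries above both stomach ones (log2 fold change 0.92, SE 0.16, adjusted p = 1.0e-05). The other 3 called higher were Atp5s, Cox7a1 and Cox6b2, of which Cox7a1 and Cox6b2 rest on few counts, and the Atp5s call, like that of Cox7a1, was lost in 7 and kept in 5 alternative settings. Lower were Ndufb4, Ndufb8 and Ndufa7 of complex I, by 1.17, 0.83 and 0.81, the ubiquinone-binding protein Uqcrb by 0.81 and Cox7a2l, a factor of supercomplexes, by 0.73 on the log2 scale. With only 2 libraries a group, no gene was called when these groups were fitted without the others; with library totals alone, which put the median of all genes at -0.26, 2 were higher and 30 lower. The number lower was 4 without stomach 1, 16 without gut 1 and 6 without gut 2. Of the mtDNA-encoded subunits 13 of 13 were higher in gut.

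The embryonic oesophagus was low in nuclear respiratory genes. Against adult WT, 66 of 79 tested genes were lower and 1, Cox6b2, was higher, where 27.8% of 22370 genes were called lower and 36.1% higher. The medians were -0.80 for the respiratory genes and 0.16 for all genes. Scaling moves both: with library totals alone they were -0.28 and 0.69, 33 genes were lower and 7 higher, and the distance between the medians was -0.97 with TMM and -0.96 with RLE size factors or totals. Lower were 28 of 35 genes of complex I, 4 of 4 of complex II, 8 of 8 of complex III, 12 of 15 tested of complex IV and 14 of 17 of complex V.

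The accessory subunit Ndufb10 stood at 17.1 and 14.6 CPM in the embryo and at 32.3, 35.3 and 39.8 CPM in the lowest, median and highest WT library. The groups did not overlap, and the log2 fold change was -1.69 (SE 0.17, adjusted p = 1.7e-11). Cox6a1 stood at 50.5 and 33.8 CPM against 68.1, 80.5 and 90.6 CPM in WT (log2 fold change -1.44, SE 0.18, adjusted p = 5.0e-09). Uqcrc1 stood at 143 and 109 CPM against 198, 228 and 248 CPM (log2 fold change -1.35, SE 0.16). For all 3 genes every embryonic library was below every WT library. Ndufa1 and Ndufa4 fell by 1.55 (SE 0.25) and 1.48 (SE 0.20), Uqcrh by 1.07 (SE 0.15) and Atp5b by 1.28 (SE 0.13) on the log2 scale.

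Cox6b2 stood at 7.02 and 9.44 CPM in the embryo and at 0.81, 1.40 and 3.61 CPM in the lowest, median and highest WT library (log2 fold change 1.77, SE 0.32, adjusted p = 6.1e-06). Ndufb7 did not pass the test, at 31.9 and 19.5 CPM against 15.1 to 20.6 CPM in WT. In the embryo, 13 of 13 genes of the tricarboxylic acid cycle were lower, as were 83 of 85 cytosolic ribosomal protein genes, while the mtDNA-encoded genes gave 1 higher and 1 lower of 13. The embryo differs from WT in gate, strain and age, which cannot be told apart; WT 3 and 4, whose raw names share the leading number 5 with the embryo, summed to 4966 and 5216 CPM against 4548 and 3650 CPM. Fibroblast markers summed to 239 and 423 CPM in the embryo and to 19.5 to 113 CPM in WT, and their part in the result was not tested.

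SmoM2 cells showed no common direction. Of 79 genes tested, 8 were higher and 11 lower than in WT, where 26.2% of 16224 genes were called higher and 23.3% lower, and the medians were -0.03 and 0.01. Cox4i1 stood at 178, 223 and 258 CPM in the lowest, median and highest SmoM2 library and at 129, 140 and 154 CPM in WT. All SmoM2 libraries were above all WT libraries (log2 fold change 0.55, SE 0.10, adjusted p = 0.00028). Cox8a, another small complex IV subunit, and Atp5d, the delta subunit of the ATP synthase, rose by 0.43 each (SE 0.11 and 0.10), and the complex I genes Ndufb8 and Ndufa11 by 0.42 and 0.37 (SE 0.11 and 0.12).

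Ndufa4l2 stood at 5.94, 24.2 and 43.6 CPM in the lowest, median and highest SmoM2 library, all below WT (log2 fold change -1.67, SE 0.43, adjusted p = 0.0046). Ndufa5, Ndufs6 and Ndufb3 of complex I fell by 0.76 (SE 0.16), 0.65 (SE 0.13) and 0.50 (SE 0.13), Atp5s by 0.59 (SE 0.15) and Sdha by 0.38 (SE 0.09) on the log2 scale. With library totals alone 19 were higher and 8 lower, the median of all genes being 0.13, and with the near-identical WT pairs summed to 1 library each 4 were higher, so that Ndufa11 was not called (adjusted p = 0.071); without WT 5 the number higher was 5 and without SmoM2 1 the number lower was 17. The SmoM2 and WT gates are opposite ends of EpCAM and no raw name of the 2 groups shares a leading number, so genotype, gate and that number cannot be told apart.

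Among EpCAM-high SmoM2 cells, those with YFP from the Krt8 reporter had higher levels of 24 of the genes, the small subunits Cox6a1, Ndufv3 and Ndufb4 among them, relative to other genes. Krt8 itself was at 21.8 ± 15.8 CPM in K8YFP+ and 1.40 ± 1.67 CPM in K8YFP- (SD, n = 3 each). In K8YFP+ against K8YFP- cells 24 of 77 tested genes were higher and 0 lower, where 13.1% of 15598 genes were called higher and 6.83% lower, and the medians were 0.37 for the respiratory genes and -0.03 for all genes. Higher were 10 of 35 genes of complex I, 3 of 8 of complex III, 7 of 13 tested of complex IV and 4 of 17 of complex V, and 0 of 4 of complex II. Same-numbered libraries may be paired, which the labels do not say, and with the number as a block 36 genes were higher and 0 lower. The values of single genes below are from the fit without the block. At an unadjusted p under 0.05 the edgeR counts were 39 and 1, and DESeq2 called 19 and 0.

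Cox6a1 stood at 154, 176 and 159 CPM in K8YFP+ and at 108, 102 and 87.8 CPM in K8YFP- (log2 fold change 1.11, SE 0.17, adjusted p = 0.0055). Ndufv3 stood at 31.8, 49.2 and 39.0 CPM against 17.0, 25.5 and 17.0 CPM (log2 fold change 1.40, SE 0.27, adjusted p = 0.012). The accessory subunit Ndufb4 stood at 12.1, 21.8 and 20.4 CPM against 7.86, 10.9 and 7.13 CPM (log2 fold change 1.43, SE 0.32, adjusted p = 0.020). In all 3 genes every K8YFP+ library was above every K8YFP- library. The complex IV subunit Cox7b rose by 1.01 (SE 0.18), the ATP synthase subunit Atp5k by 1.07 (SE 0.24) and Ndufa4l2 by 0.94 (SE 0.23), the last a call lost in 5 and kept in 8 alternative settings.

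The summed level did not follow these calls, at 5802, 5022 and 5585 CPM in K8YFP+ and 5852, 6712 and 5404 CPM in K8YFP-, which overlap. With library totals in place of TMM factors the median of all genes was -0.41 and that of the respiratory genes -0.02, and 5 genes were higher and 5 lower, so the calls describe a position relative to other genes. Library totals ran from 1.61 to 6.71 M counts in K8YFP+. The number of genes higher was 11 without K8YFP- 1, 3 without K8YFP- 3, and 12, 13 and 8 without K8YFP+ 1, 2 and 3.

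Other RNA moved with this gate. Fibroblast markers (8 genes) summed to 73.2, 639 and 321 CPM in K8YFP+ and to 17.0, 80.0 and 70.6 CPM in K8YFP-, and 6 of 8 were called higher. Endothelial markers (4 genes) summed to 26.4, 115 and 40.6 CPM against 10.6 to 19.2 CPM. The 11 columnar markers, Krt8 among them, summed to 50.6 to 207 CPM against 4.57 to 12.1 CPM, and 4 of 4 tested were higher. The 9 squamous markers summed to 20076 to 28187 CPM against 13862 to 18417 CPM, with 3 called higher and 4 lower. Of the mtDNA-encoded subunits 11 of 12 tested were higher, and the 13 summed to 20049, 41445 and 22220 CPM against 15666 to 16692 CPM. The part of these other transcripts in the result was not tested.

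Few genes differed between SmoM2 cells with the Sox9fl/fl allele, Sox9 being a transcription factor, and SmoM2 cells without it. Of 79 genes tested, 0 were higher and 1 lower in Sox9cKO than in SmoM2, where 1.18% of 17047 genes were called higher and 1.48% lower, and the medians were 0.06 and 0.00. The gene was Ndufs5, an accessory subunit of complex I, at 5.34, 2.64, 2.89 and 3.57 CPM in Sox9cKO and at 6.28, 8.10 and 9.80 CPM in the lowest, median and highest SmoM2 library. All Sox9cKO libraries were below all SmoM2 libraries (log2 fold change -1.11, SE 0.22, adjusted p = 0.022). The call was lost without the library labelled Sox9cKO 3 (adjusted p = 0.075), without Sox9cKO 4 (0.059) or SmoM2 2 (0.052), and with replicate number as a block (0.053). At an unadjusted p under 0.05 edgeR gave 4 higher and 1 lower, and DESeq2 called 0 and 1.

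The time series compares EpCAM-high with EpCAM-low SmoM2 cells at 3 and at 7 weeks, and the respiratory genes called at either time were all lower in the EpCAM-high cells. At 3 weeks 0 of 79 genes were higher and 14 lower, where 7.37% of 17263 genes were called higher and 7.84% lower, with medians of -0.15 and -0.01. At 7 weeks 0 were higher and 34 lower, where 15.5% were called higher and 16.8% lower, with medians of -0.25 and -0.02. With all 14 groups fitted together the numbers lower at 3 and 7 weeks were 4 and 17, and without the filter on low counts they were 9 and 16, with 1 higher at 7 weeks. By complex, I to V, 5, 2, 1, 2 and 4 genes were lower at 3 weeks and 18, 3, 5, 2 and 6 at 7 weeks. At an unadjusted p under 0.05 edgeR gave 0 higher at 3 weeks and 2 at 7 weeks, and DESeq2 called 0 and 1. The summed level was 4395 ± 55.9 CPM in EpCAM-high and 4805 ± 114 in EpCAM-low cells at 3 weeks, and 5025 ± 332 and 5811 ± 275 CPM at 7 weeks (SD, n = 4 each), and the gates did not overlap at either time.

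Both core and accessory subunits were among these genes. Uqcrc1 (chr9:108936633-108949623, plus strand), a core protein of complex III, stood at 135, 133, 141 and 129 CPM in EpCAM-high and 168, 165, 182 and 181 CPM in EpCAM-low cells at 3 weeks (log2 fold change -0.43, SE 0.09, adjusted p = 0.0011). At 7 weeks it stood at 161, 180, 143 and 203 CPM against 261, 234, 255 and 223 CPM (log2 fold change -0.55, SE 0.09, adjusted p = 2.0e-05). The gates did not overlap in Uqcrc1 at either time. At 3 weeks the accessory subunit Ndufa8 fell by 0.49 (SE 0.11), Ndufs7 by 0.46 (SE 0.12) and Cox7a2l by 0.44 (SE 0.15), and at 7 weeks Ndufv1 fell by 0.71 (SE 0.07), Ndufa10 by 0.58 (SE 0.07) and Ndufs7 by 0.50 (SE 0.11) on the log2 scale. The Cox7a2l call was lost in 12 and kept in 4 alternative settings, the adjusted p being 0.061 with RLE factors and 0.055 with DESeq2.

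Ndufa4 was the 1 gene called for a gate difference that changed with time. It stood at 62.4, 73.0, 59.6 and 62.6 CPM in EpCAM-high and 79.7, 77.4, 75.9 and 71.5 CPM in EpCAM-low cells at 3 weeks, where the gates overlap (log2 fold change -0.29, SE 0.09, adjusted p = 0.023). This 3-week call was lost in 8 and kept in 8 alternative settings, the adjusted p being 0.10 with library totals alone and 0.36 in the fit of all 14 groups. At 7 weeks it stood at 63.3, 52.8, 47.0 and 58.9 CPM against 101, 99.6, 92.8 and 89.3 CPM, with no overlap (log2 fold change -0.83, SE 0.09, adjusted p = 7.0e-08). The interaction of gate and time was -0.54 (SE 0.12, adjusted p = 0.017), 0 of 79 genes higher and 1 lower, where 1.55% of genes were called higher and 0.759% lower (1 and 7 at an unadjusted p under 0.05, and 0 and 1 called by DESeq2). The call was lost without the filter on low counts (adjusted p = 0.058), in the fit of all 14 groups (0.53), without 3w EpCAM-high 2 (0.064) and without 3w EpCAM-low 4 (0.053). Ndufa4l2 held 43.4% to 55.4% of the pair per length in EpCAM-high and 18.9% to 35.1% in EpCAM-low cells at 7 weeks, and 34.5% to 40.8% and 33.2% to 38.9% at 3 weeks.

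Times differ in the leading number of the raw names (11 at 3 weeks and 12 at 7 weeks), so the change of levels with time cannot be told apart from that number, while each gate comparison lies within 1 number. Cytosolic ribosomal protein genes were lower in the same comparisons, 63 of 85 tested at 3 weeks and 77 of 85 at 7 weeks. The 9 squamous markers summed to 10552 to 10867 CPM in EpCAM-high and 13292 to 14541 CPM in EpCAM-low cells at 3 weeks, and to 11190 to 13273 and 21034 to 22651 CPM at 7 weeks, with 4 of 9 called lower at each time and 2 higher at 7 weeks. The 10 intestinal markers summed to 38.2 to 72.6 against 11.8 to 21.3 CPM at 3 weeks and to 122 to 237 against 11.3 to 18.9 CPM at 7 weeks. Of 4 intestinal markers tested only Lgr5, known from stem cells, was called higher, and Olfm4, Fabp1 and Sis had no count in any of these libraries. The gates did not overlap in either sum at either time, and the part of these transcripts in the result was not tested.

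Other mitochondrial genes did not all move with the nuclear subunits. In normal columnar against normal squamous tissues, 11 of 13 mtDNA-encoded subunits, 33 of 45 assembly factors, 11 of 13 genes of the tricarboxylic acid cycle and 52 of 78 mitochondrial ribosomal protein genes were higher, and 0, 2, 0 and 6 lower. In glycolysis 3 of 16 genes were higher and 8 lower, and of the cytosolic ribosomal protein genes 3 of 85 were higher and 76 lower. Of all tested genes, 32% were called higher and 34.6% lower in this comparison. At the junction 31 of 45 assembly factors were higher and 2 lower, and 4 of 13 genes of the tricarboxylic acid cycle higher and 5 lower. Of 78 mitochondrial ribosomal protein genes only 26 were higher there and 12 lower. Of 13 mtDNA-encoded subunits 3 were higher and 4 lower, where 39.2% of all tested genes were called higher and 35.2% lower. The 13 together summed to 38971 to 53481 CPM in columnar and 26423 to 33058 CPM in squamous cells. Of these, mt-Co2, mt-Atp8, mt-Atp6 and mt-Co3 summed to only 38.1 to 48.3 CPM in columnar and 135 to 224 CPM in squamous cells. The count of calls did not follow the sum. Calls weigh each gene alike and use TMM factors, while the sum is by library total. Without TMM factors the median log2 fold change of all genes at the junction moved from 0.08 to 0.39. The part of either difference was not tested. At 7 weeks 11 of 13 genes of the tricarboxylic acid cycle and 8 of 12 genes of electron carriers and ATP export were lower in EpCAM-high cells. In both lists 0 were higher, where 15.5% of all tested genes were called higher and 16.8% lower.

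Regulators of mitochondrial biogenesis (14 genes) gave 7 higher and 6 lower in columnar tissues, where 32% of all tested genes were called higher and 34.6% lower. In the embryo they gave 5 higher and 4 lower, which is near the 36.1% and 27.8% of all tested genes. Ppargc1a, the coactivator PGC-1alpha, rose by 4.22 (SE 0.29) on the log2 scale in columnar tissues and by 4.71 (SE 0.39, adjusted p = 5.8e-14) in the embryo, where the subunits were lower. The ATP/ADP carriers of the inner membrane differed from each other. Slc25a4 fell by 1.88 (SE 0.12) in columnar tissues and by 2.71 (SE 0.28) in gut against stomach, and Slc25a5 fell by 1.79 (SE 0.16) in the embryo while Slc25a4 was at 0.06 (SE 0.15, adjusted p = 0.76) there.

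The nuclear and the mtDNA-encoded sums took different orders across groups. The 13 mtDNA-encoded genes summed to 87191 and 142990 CPM in gut, 35773 and 62726 CPM in stomach, 38971 to 53481 CPM in junction columnar cells, 26423 to 33058 CPM in junction squamous cells and 13237 to 23982 CPM in WT. Stomach was highest in the nuclear genes and gut in the mtDNA-encoded ones. The embryo, lowest in the nuclear sum, stood at 23368 and 20618 CPM in the mtDNA-encoded one, among the higher groups outside the columnar tissues.

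**Figure D5:**
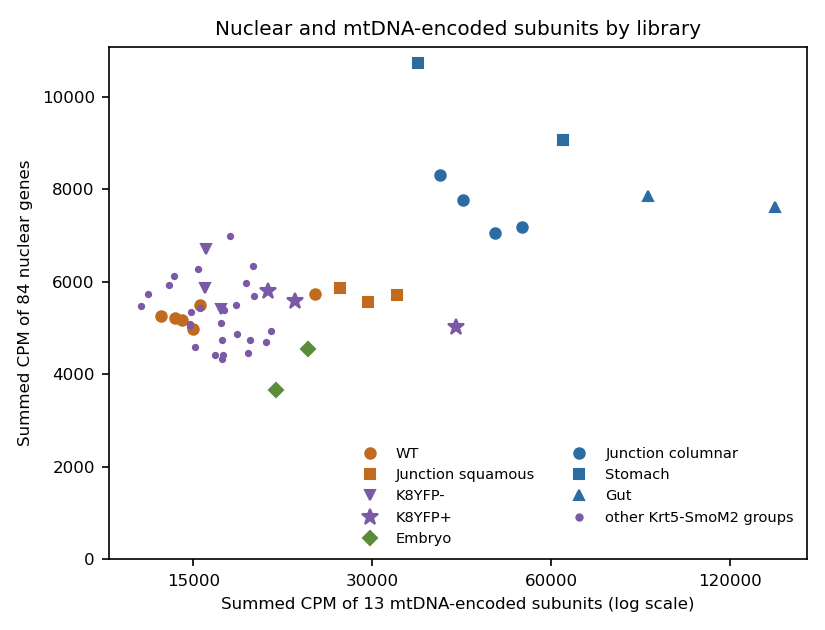
Summed level of the 84 nuclear genes (CPM, linear axis) against that of the 13 mtDNA-encoded subunits (CPM, log axis) in each library, with groups by colour and shape. The 8 normal columnar libraries lie apart at the upper right, and the K8YFP+ library at 41445 CPM on the horizontal axis lies at 5022 CPM on the vertical one.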

How the data were processed

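The files hold raw read counts per gene and library, which the authors deposited as 1 table; per the labels' protocols, total RNA of sorted cells was made into libraries with the NuGEN Ovation Solo kit and sequenced on a NovaSeq instrument, and per the submitters' processing notes STAR 2.5.3a, HTSeq and edgeR with builds GRCm38 and mm10 were used. For the counting, the annotation release and strand setting were not given in the sources used here, so reads of overlapping genes on the other strand cannot be told apart. Levels are CPM by plain library total, with exon lengths from GENCODE M21. Differences were tested with edgeR's quasi-likelihood F test (edgeR 4.0.16, R 4.3.3, TMM factors, filterByExpr with a minimum count of 10 and a minimum total of 15), with Benjamini-Hochberg adjustment over all genes tested and a threshold of 0.05; SE is the log2 fold change divided by the square root of F. The tissue comparisons and the embryo share 1 fit, and comparisons that use WT, SmoM2 or a junction group share those libraries, so they are not independent. Sums and shares carry no test.

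The members and lists were chosen with earlier results of these data known. Named genes are the 2 most abundant per complex, up to 5 called per direction and comparison with the largest fold change (higher group averaging 5 CPM or more), and tissue isoforms; Sdhc and Uqcr10 were named after their values were seen, and 1 gene that the rule names is not reported here. Alternatives were RLE factors, library totals alone (chosen after seeing the data), no filter, DESeq2 1.42.0, a replicate block, other sets of groups in the fit, mt- genes left out, WT 3 and 5 and WT 4 and 6 summed, tissue isoforms left out, and each library left out. Same-numbered libraries deviated together in K8YFP+ and K8YFP- (correlations 0.291 to 0.409) and in the 3-week gates (0.165 to 0.295). Libraries of different numbers were not compared in this way, so pairing is possible but not shown. Values of single genes are from fits without pairing. In the 7-week gates the correlations were 0.0746 to 0.207, which leaves pairing there unsettled. In each of the remaining comparisons at least 1 correlation was below 0.1. Total counts of 1.61 to 12.26 M per library limit precision for genes near 0; the interval on Ndufa4l2 is exact, at 95%, and covers counting error only.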

Additional observations from a re-analysis of the deposited data

Results flagged for a closer look

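The summed CPM of complex II in EpCAM-high SmoM2 cells at 7 weeks had a lowest library, at 195.4 CPM, that stood far from the other 3 for the spread of that group. The summed CPM of complex III in EpCAM-low SmoM2 cells at 3 weeks had a highest library, at 614.3 CPM, that stood far from the others in the same sense. Of 70 groups of values examined in this way these 2 stood out, and chance marks about 1 in 20.

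The gate difference of Ndufa4 at 7 weeks minus that at 3 weeks was -0.5366 on the log2 scale, by the interaction term of the edgeR fit (adjusted p = 0.017), so the difference between gates was larger at 7 weeks. It is the 1 called gene of 79 tested and lost its call under 2 other settings and without either of 2 single libraries at 3 weeks.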

How the results depend on the processing

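Over 473 alternatives of the 29 counts and ratios, 412 stayed within 1.5 times the count or within 1 SD of the ratio, 58 moved and 3 reversed. Of 81 calls of named genes, 51 held under every setting run, and over their 1372 alternatives 84 lost the call and 0 reversed. The cause of these changes was not tested. Totals of 1.61 to 12.26 M counts leave genes of a few CPM imprecise, and groups of 2 libraries carry tests only through a pooled spread.

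With library totals alone, counts of genes higher and lower were 61 and 2 at the junction, 2 and 30 in gut against stomach, 7 and 33 in the embryo, 19 and 8 in SmoM2, 5 and 5 in K8YFP+ and 1 and 25 at 7 weeks. Without the filter on low counts, 2 were higher in gut, 3 in the embryo, 4 in SmoM2, 12 in K8YFP+ and 1 at 7 weeks, and 9 were lower at 3 weeks, 16 at 7 weeks and 0 in the interaction. Fitted alone, gut against stomach gave 0 and 0. RLE factors and DESeq2 each gave 6 lower in gut and 1 higher at 7 weeks, and DESeq2 gave 2 higher in the embryo. Without tissue isoforms 1 was lower in columnar tissues, 2 were higher in gut and 0 in the embryo. With the WT pairs summed 4 were higher in SmoM2. In the fit of all 14 groups 1 was lower in K8YFP+, 3 were higher in Sox9cKO, 4 were lower at 3 weeks, 17 at 7 weeks and 0 in the interaction.

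With replicate number as a block, K8YFP+ gave 36 higher, 7 weeks 1 higher and Sox9cKO 0 lower, and no other count moved by over 1.5 times. Outside K8YFP, 3 weeks and 7 weeks the libraries were taken to share only a number. In K8YFP, at 3 weeks and at 7 weeks (correlations of 0.0746 to 0.207 in the last), whether same-numbered libraries are paired is not settled. With TMM-scaled CPM the log2 ratio of summed levels was 0.13 at the junction, -0.099 in gut against stomach, -0.90 in the embryo, -0.17 at 3 weeks, and turned to -0.073 in SmoM2 and 0.15 in K8YFP+. Without the 3 most abundant genes it was 0.54 at the junction.

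Leaving out each library gave 30 to 45 higher and 11 to 12 lower at the junction, 65 to 68 and 2 to 4 in columnar tissues, 2 to 4 and 4 to 16 in gut against stomach, 1 and 58 to 69 in the embryo, 5 to 12 and 10 to 17 in SmoM2, 3 to 16 and 0 in K8YFP+, 0 to 1 and 0 to 1 in Sox9cKO, 0 and 10 to 13 at 3 weeks, 0 to 1 and 23 to 33 at 7 weeks, and 0 and 0 to 1 in the interaction. The log2 ratio of summed levels ran from 0.36 to 0.44, 0.56 to 0.66, -0.47 to -0.23, -0.54 to -0.22, 0.043 to 0.12, -0.20 to -0.041, -0.012 (without Sox9cKO 1) to 0.14, -0.14 to -0.12 and -0.24 to -0.17 in the same order without the interaction.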

Other observations

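Within the mtDNA-encoded subunits, the 4 neighbouring genes mt-Co2, mt-Atp8, mt-Atp6 and mt-Co3 held between 0.0419% and 0.678% of the counts of the 13 genes in every library, a share that also differed between groups. It was 0.511% to 0.678% in junction squamous cells, 0.0902% to 0.0978% in junction columnar cells, 0.0614% to 0.101% in WT and 0.160% to 0.605% in K8YFP+. Sums over the mtDNA-encoded genes thus rest on the other 9 genes in all 51 libraries. Counts of called mtDNA-encoded genes, by contrast, weigh each tested gene alike, however few its reads.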
